A study of Mus musculus with 8 samples.

Results

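A set of 9 genes of ion and fluid transport across the lung epithelium was followed around birth in mice with and without Wfdc2. They were picked by name for their roles, as 9 of the 25965 genes in the deposited table, and comprise 3 subunits of the epithelial sodium channel (Scnn1a, Scnn1b, Scnn1g), the β1 subunit of the sodium pump (Atp1b1), 3 genes of chloride secretion (Cftr, Ano1, Slc12a2) and 2 water channels (Aqp1, Aqp4). All 9 were measured in every library, and all 9 entered the tests, which took the 15627 genes whose mean RPKM reached 0.05 or more. Over both genotypes 2 of them passed the test across birth. Scnn1b was 3.09-fold higher at P1.5 than at E18.5 and Aqp4 was 4.59-fold lower, and neither call remained when any 1 of 6 particular libraries was left out.

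Total RNA of the lung was sequenced from Wfdc2 +/+ and Wfdc2 GFP/GFP mice at embryonic day E18.5, just before birth, and at postnatal day P1.5, with 2 libraries in each of the 4 groups. In the GFP/GFP mice both Wfdc2 alleles have GFP knocked in where exon 2 and some of exon 1 were, with the selection marker removed by CAG-Cre, and the line came from TT2 embryonic stem cells by way of chimeras. The change is in the germline, so it affects all cells that would make Wfdc2, a secreted protein of the WAP family. Numbers of GFP/GFP pups decline after birth in this line, so lungs taken at P1.5 are those of pups alive at that age. The controls were littermates, but the replicate numbers are not stated to mark litters, and nothing states how many animals went into a library, so p-values measure only the spread between these libraries. Some libraries were read on an Illumina HiSeq2500 and others on a GAIIx, and which was which is not given in the sources used here.

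The fetal lung is filled with liquid that its epithelium secretes. Chloride enters the cells through the cotransporter encoded by Slc12a2 and leaves through apical channels, and water follows. Around birth the balance turns to absorption, in which sodium enters through the apical sodium channel built from the Scnn1 subunits and is pumped out at the base by the sodium pump, with water following through and between the cells.

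Levels were deposited as log2 RPKM, that is, reads scaled to the library total and to gene length on the log2 scale, where the length is the whole span with its introns. Reads could be recovered from the steps of the values, and library totals ran from 19457647 to 37209332 reads, and the detection limit used, 3 reads, was worth 0.0806 to 0.154 RPM (reads scaled to the library total, as in RPKM, but without the length). These limits cover counting error only. Wfdc2 had 8038 to 32845 reads in the +/+ libraries and 0 to 12 in the GFP/GFP libraries. Replicate 1 of each group carried the female transcript Xist (4121 to 90980 reads) and replicate 2 the male transcript Ddx3y (972 to 2175 reads), so the replicate number and the sex of the lung cannot be told apart. The 7 epithelial markers (Epcam, Cdh1, Krt8, Krt18, Krt19, Cldn18, Nkx2-1) had reads in every library, with a summed level of 2061 to 3462 RPM. E18.5 GFP/GFP replicate 1 stood apart from the other libraries: its alveolar water channel Aqp5 was at log2 RPKM 1.36 against 4.57 to 4.96 in the other 3 libraries of that stage, and its 3 club cell markers summed to 636 RPM against 2047 to 2705. The calls and the widest differences of the 9 genes are therefore given with and without E18.5 GFP/GFP replicate 1. P1.5 +/+ replicate 2 also differed from the rest of its stage, with Aqp5 at 5.40 against 6.65 to 7.37. Its median log2 RPKM over the genes tested was −0.22 against −0.96 to −0.63, and Sftpc took 2.40% of its reads against 4.41 to 6.23%.

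Set per kilobase of exon, the only scale used here to compare genes with each other, Aqp1 was the most abundant of the 9 at 202 ± 54.7 RPM per exon kilobase (SD, n = 8 libraries). Atp1b1 followed at 119 ± 23.0, then Scnn1a at 48.9 ± 12.9, Scnn1g at 33.7 ± 13.1 and Scnn1b at 28.5 ± 17.0. Slc12a2 was at 20.0 ± 9.36, Ano1 at 15.3 ± 9.11, Cftr at 3.61 ± 1.49 and Aqp4 at 1.55 ± 1.22. Atp1b1 lay above Scnn1a, Ano1 above Cftr, and Cftr above Aqp4 in 8 of 8 libraries. The places of Scnn1g, Scnn1b and Slc12a2 were less fixed, since each lay above the next in this order in only 5 or 6 of the 8 libraries, and the order changed with stage. At E18.5 Scnn1b, with a mean of 14.2, lay below Slc12a2 (24.5) and Ano1 (21.6). These means include E18.5 GFP/GFP replicate 1 (8.01, 41.2 and 33.2). Scnn1b lay above Ano1 in E18.5 +/+ replicate 2 (18.2 against 17.7) and above Slc12a2 in E18.5 GFP/GFP replicate 2 (16.3 against 14.9). Otherwise it lay below both at E18.5. At P1.5 Scnn1b, with a mean of 42.8, lay beside Scnn1g (41.7). Reads in introns are counted in these levels, because the deposited counts span the gene.

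**Figure D1:**
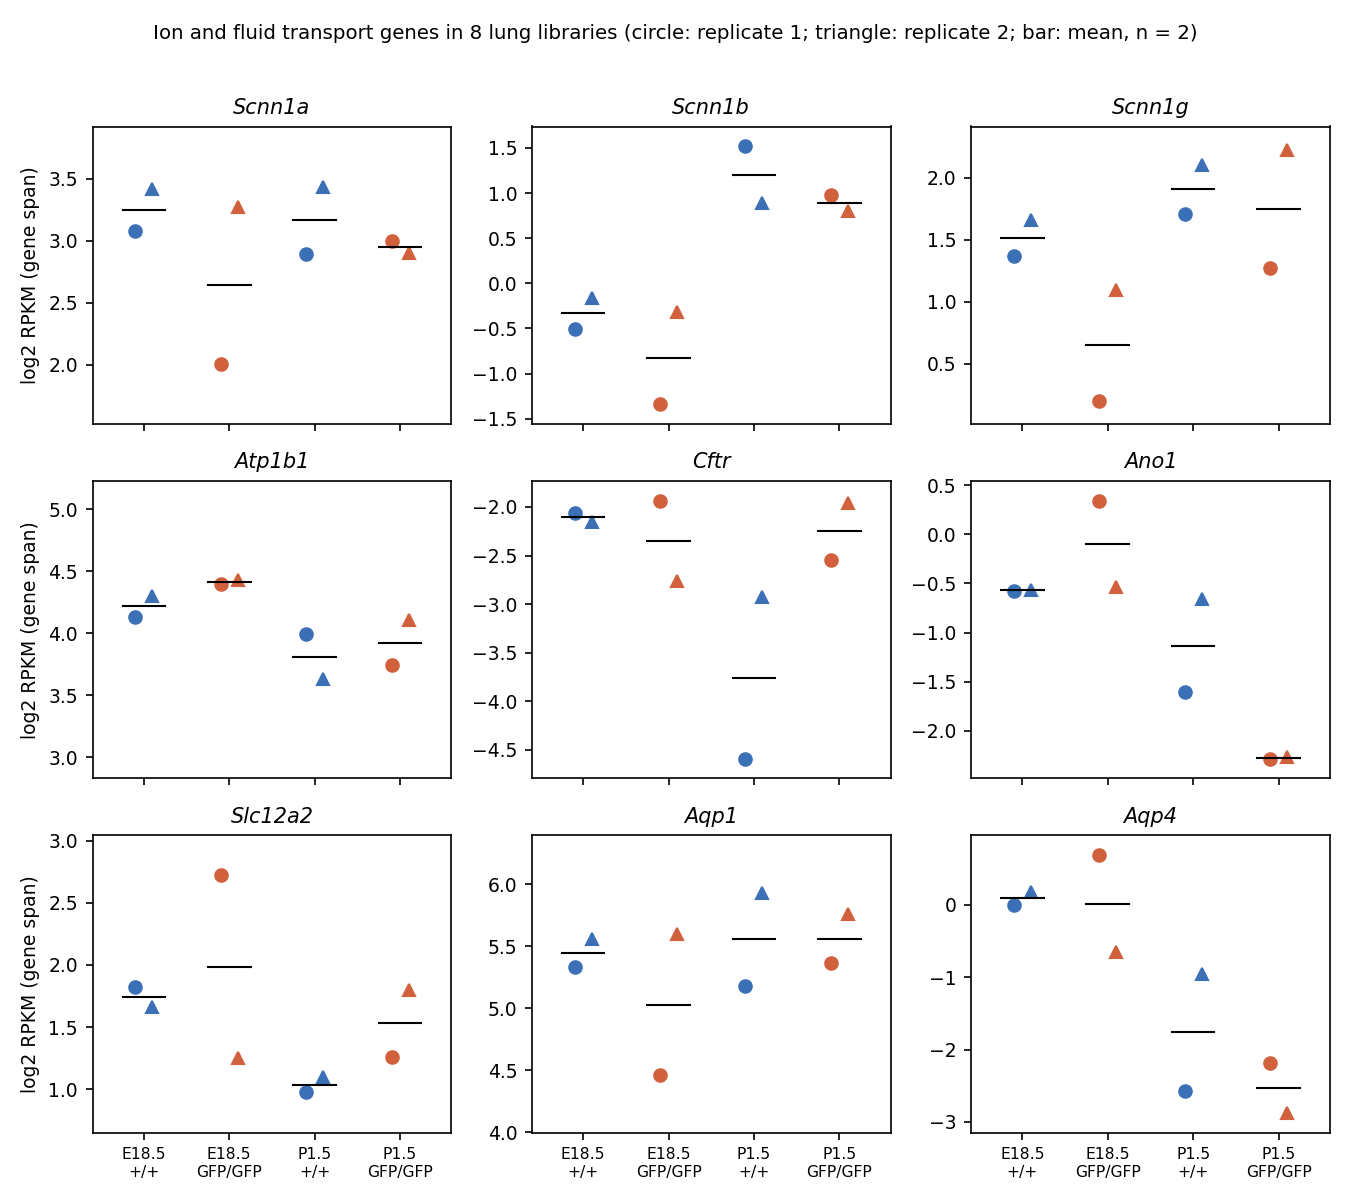
Log2 RPKM over the gene span (vertical axes, each with its own range) of the 9 genes in the 4 groups (horizontal axes, 2 libraries each), with circles for replicate 1, triangles for replicate 2 and bars for the group mean. All 4 P1.5 libraries lie above all 4 E18.5 libraries for Scnn1b and below them for Aqp4, Ano1 and Atp1b1, as the values are deposited (with median centring the stage difference of Atp1b1 is 0.025).

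Scnn1b and Scnn1g lie head to tail on chromosome 7, 96635 bases apart in mm10 (Scnn1g from 121734479 to 121768475 and Scnn1b from 121865111 to 121918515, both on the plus strand), and encode the β and γ subunits, which raise the current of the channel formed by the α subunit. Their promoters are shown because Scnn1b passed the test across birth and its neighbour did not, although the difference between them was not tested. RefSeq's promoter table (GRCm38.p6) held 6 of the 9 genes. The annotated start of Scnn1b is base 121865038, upstream of the deposited one. The 250 bases before the annotated starts, from chr7:121734229-121734478 and chr7:121864788-121865037 on the plus strand, read 5′ to 3′ as follows, with capitals marking the GC box GGGCGG or its reverse complement:
Scnn1g: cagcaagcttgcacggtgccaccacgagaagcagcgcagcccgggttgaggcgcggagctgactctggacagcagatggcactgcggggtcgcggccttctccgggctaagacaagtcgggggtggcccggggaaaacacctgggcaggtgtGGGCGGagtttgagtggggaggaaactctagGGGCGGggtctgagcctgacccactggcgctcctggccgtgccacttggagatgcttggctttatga
Scnn1b: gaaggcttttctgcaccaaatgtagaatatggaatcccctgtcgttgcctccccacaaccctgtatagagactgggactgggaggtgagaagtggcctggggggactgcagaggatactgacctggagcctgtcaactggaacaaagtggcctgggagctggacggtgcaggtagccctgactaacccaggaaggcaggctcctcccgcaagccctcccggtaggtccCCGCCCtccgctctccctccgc

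The GC box was found 2 times in the Scnn1g window, 98 and 67 bases before the start, and 1 time in the Scnn1b window, 22 bases before that annotated start on the opposite strand. The 3 motifs below were searched on both strands in windows of this length, and matches were allowed to overlap. The GC box GGGCGG was in 32.7% of all 32851 promoters and in each of the 6 members' promoters. The TATA box TATAAA was in 12.4% of all promoters and the hexamer of the glucocorticoid receptor site AGAACA in 16.1%, and neither string was in any of the 6. A match is only a run of letters, and its absence from so short a window says nothing of the factor.

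Scnn1b rose across birth. Its log2 RPKM was −0.50 and −0.16 in E18.5 +/+ lungs and −1.34 and −0.31 in E18.5 GFP/GFP lungs. At P1.5 it was 1.52 and 0.89 in +/+ lungs and 0.98 and 0.81 in GFP/GFP lungs, and the stages did not overlap. Over both genotypes the log2 difference was 1.63 (SE 0.31, 95% interval 0.92 to 2.33), with a limma adjusted p = 0.0358 by the Benjamini-Hochberg method. Within genotypes the difference was 1.53 (SE 0.43, adjusted p = 0.263) in +/+ and 1.72 (SE 0.43, adjusted p = 0.0564) in GFP/GFP lungs, where neither limma value alone was under 0.05. Without E18.5 GFP/GFP replicate 1, whose value was the lowest, the difference was 1.37 with a limma adjusted p = 0.0980. In RNA from whole lung, fewer cells of a type and less RNA per cell cannot be told apart, and this holds for every result here.

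Most of the Scnn1b gene, 73.3% of its span, lies under Cog7 on the opposite strand, and whether reads were counted by strand is not given in the sources used here. Cog7, a subunit of a Golgi tethering complex, was at 25.6 to 35.9 RPM over its own span at E18.5 and 13.8 to 27.9 RPM at P1.5, so its stages overlapped. In reads of the same library, Scnn1b held between 0.587 and 1.61 times the reads of Cog7 at E18.5. At P1.5 it held between 3.46 and 11.1 times as many. Markers of club cells, the secretory cells of the airway (Scgb1a1, Scgb3a2 and Cyp2f2), had reads in every library (3 of 3). Their summed level was 636 to 2705 RPM at E18.5 and 8364 to 17114 RPM at P1.5, higher at the stage where Scnn1b was higher. Sums of 7 alveolar type II cell markers separated the stages too, at 9512 to 23532 and 29511 to 68903 RPM. Those of 7 alveolar type I cell markers did so at 2520 to 4932 and 5404 to 7326 RPM. Over both genotypes 3 of 3 club cell, 2 of 7 type II and 1 of 7 type I markers were higher at P1.5. The part of these genes in the result was not tested.

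Scnn1a, which encodes the α subunit needed for the channel to conduct (chromosome 6, 125320659 to 125344943), did not pass the test. Its log2 RPKM was 3.08 and 3.42 in E18.5 +/+, 2.01 and 3.27 in E18.5 GFP/GFP, 2.90 and 3.44 in P1.5 +/+ and 3.0 and 2.90 in P1.5 GFP/GFP lungs. The stages overlapped, and E18.5 GFP/GFP replicate 1 alone lay below the rest. The log2 difference across birth was 0.11 (SE 0.31, 95% interval −0.61 to 0.84), with a limma adjusted p = 0.792, and −0.20 without that library. Scnn1g was at 1.37, 1.66, 0.20 and 1.09 in the 4 E18.5 libraries and at 1.71, 2.1, 1.27 and 2.22 in the 4 P1.5 libraries, with +/+ before GFP/GFP in each. All but 1 of the P1.5 values lay above all E18.5 values, and the log2 difference was 0.75 (SE 0.31, 95% interval 0.02 to 1.47), with a limma adjusted p = 0.120, and 0.52 without E18.5 GFP/GFP replicate 1.

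Ratios between genes within a library do not depend on its total. They were computed per exon kilobase, as a description without a test and after the values were seen. Reads in introns are counted in them, and the part of those reads was not tested. The gene spans were 24.3 to 53.4 kb for the 3 sodium channel genes and 68.1 to 163 kb for Cftr, Ano1 and Slc12a2. Scnn1b stood at 0.287 to 0.339 of Scnn1a in the 4 E18.5 libraries, E18.5 GFP/GFP replicate 1 included, and at 0.591 to 1.32 in the 4 P1.5 libraries. Scnn1g stood at 0.427 to 0.590 of Scnn1a at E18.5 and at 0.584 to 1.21 at P1.5, where the ranges just overlapped. The summed level of the 3 sodium channel genes was 0.563 to 2.80 times that of Cftr, Ano1 and Slc12a2 at E18.5 and 4.11 to 6.43 times at P1.5. The low value of 0.563 belonged to E18.5 GFP/GFP replicate 1, and the other 3 libraries of that stage lay between 2.1 and 2.80.

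**Figure D2:**
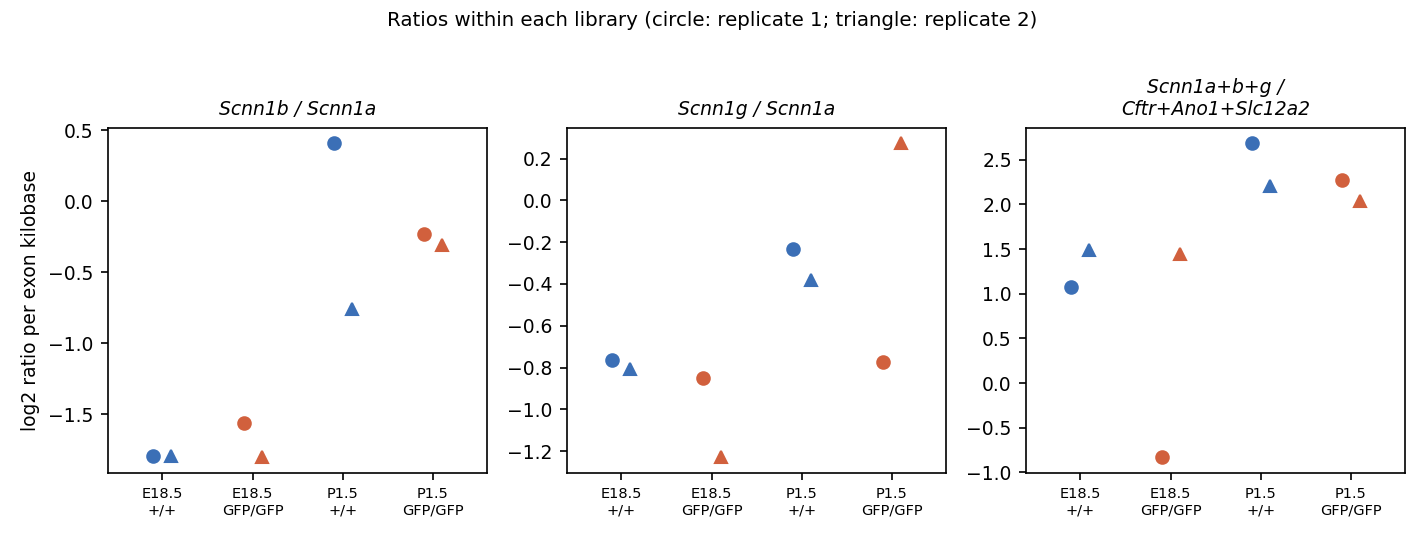
Log2 ratios per exon kilobase within each library (vertical axes) in the 4 groups (horizontal axes, blue for Wfdc2 +/+, orange for Wfdc2 GFP/GFP, circles for replicate 1, triangles for replicate 2). Scnn1b over Scnn1a lies between −1.80 and −1.56 in the E18.5 libraries and between −0.76 and 0.41 in the P1.5 libraries, while Scnn1g over Scnn1a overlaps between the stages.

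Atp1b1 encodes the β1 subunit that carries the sodium pump to the basal membrane (chromosome 1, 164437267 to 164458355, minus strand). Its log2 RPKM was 4.13 and 4.30 in E18.5 +/+ and 4.39 and 4.43 in E18.5 GFP/GFP lungs, then 3.99 and 3.63 in P1.5 +/+ and 3.74 and 4.10 in P1.5 GFP/GFP lungs. The stages did not overlap as deposited, but the log2 difference of −0.45 (SE 0.21) had a limma adjusted p = 0.146, and with each library centred on its median gene it was 0.025. Nme7, a gene on the opposite strand, covers 459 bases or 2.18% of the Atp1b1 span.

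Among the genes of chloride secretion, Ano1 had the most distinct course. Ano1 encodes a calcium-activated chloride channel of secretory epithelia and smooth muscle (chromosome 7, 144588549 to 144751974, minus strand). Its log2 RPKM was −0.58 and −0.57 in E18.5 +/+ and 0.34 and −0.53 in E18.5 GFP/GFP lungs. At P1.5 it was −1.61 and −0.66 in +/+ lungs and −2.28 and −2.27 in GFP/GFP lungs, each below every E18.5 value. In GFP/GFP lungs Ano1 fell 4.53-fold across birth, by 2.18 on the log2 scale (SE 0.46, 95% interval −3.25 to −1.11), with a limma adjusted p = 0.0471. Over both genotypes the log2 difference was −1.37 (SE 0.33), with a limma adjusted p = 0.0513 that was 0.0303 without E18.5 GFP/GFP replicate 2, 0.00813 without P1.5 +/+ replicate 2 and 0.0692 to 0.180 without any 1 of the other 6 libraries, and in +/+ lungs it was −0.56 (SE 0.46, adjusted p = 0.521). Without E18.5 GFP/GFP replicate 1 the difference was −1.15 over both genotypes, with a limma adjusted p = 0.147, and −1.74 in GFP/GFP lungs, with a limma adjusted p = 0.244. The call in GFP/GFP lungs was also lost without any 1 of E18.5 +/+ replicates 1 and 2 and P1.5 GFP/GFP replicates 1 and 2, where the difference was −2.18, −2.18, −2.17 and −2.19. The 5 smooth muscle markers had reads in every library, and across birth in GFP/GFP lungs 4 of them were higher and 1 lower, at −1.48. Their summed level was 462 and 629 RPM in E18.5 GFP/GFP and 972 and 1195 RPM in P1.5 GFP/GFP lungs, higher where Ano1 was lower. In P1.5 +/+ lungs the order was the other way, with 351 RPM in replicate 1, where Ano1 was lower, and 945 RPM in replicate 2, and the part of these markers in the result was not tested.

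Cftr encodes the chloride channel gated by cyclic AMP (chromosome 6, 18170687 to 18322768). Its log2 RPKM was −2.06 and −2.15 in E18.5 +/+ and −1.94 and −2.77 in E18.5 GFP/GFP lungs, then −4.59 and −2.93 in P1.5 +/+ and −2.54 and −1.96 in P1.5 GFP/GFP lungs. The lowest of these was P1.5 +/+ replicate 1, with 137 reads over the gene against 389 to 1479 in the other libraries. Across birth the log2 difference over both genotypes was −0.78 (SE 0.44), with a limma adjusted p = 0.216, and it was −0.36 without that library. Without P1.5 +/+ replicate 2 it was −1.19, with a limma adjusted p = 0.0280. Slc12a2, the cotransporter that loads epithelial cells with sodium, potassium and chloride (chromosome 18, 57878678 to 57946821), was at 1.82 and 1.66 in E18.5 +/+, 2.72 and 1.25 in E18.5 GFP/GFP, 0.97 and 1.10 in P1.5 +/+ and 1.26 and 1.80 in P1.5 GFP/GFP lungs. Its 4 highest values came from 3 E18.5 libraries and 1 P1.5 library, and the log2 difference was −0.58 (SE 0.34), with a limma adjusted p = 0.225. Its highest value was that of E18.5 GFP/GFP replicate 1, without which the difference was −0.22.

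Aqp4, a water channel of the basolateral membrane of airway epithelium, fell across birth (chromosome 18, 15389394 to 15403684, minus strand). It was the scarcest of the 9 genes, with 493 and 505 reads in E18.5 +/+, 858 and 265 in E18.5 GFP/GFP, 52 and 144 in P1.5 +/+ and 73 and 57 in P1.5 GFP/GFP lungs. As log2 RPKM these were 0.00, 0.18, 0.69 and −0.66 at E18.5 and −2.58, −0.95, −2.18 and −2.87 at P1.5. Every P1.5 value lay below every E18.5 value, and the highest of them was that of P1.5 +/+ replicate 2. The log2 difference was −2.20 (SE 0.46, 95% interval −3.27 to −1.13), with a limma adjusted p = 0.0429. Within genotypes it was −1.86 (SE 0.65, adjusted p = 0.373) in +/+ and −2.54 (SE 0.65, adjusted p = 0.0578) in GFP/GFP lungs, and neither limma value alone was under 0.05. Without E18.5 GFP/GFP replicate 1, where Aqp4 was highest, the difference was −1.86 with a limma adjusted p = 0.134. An antisense gene, AC133525.2, overlaps Aqp4. The 3 ciliated cell markers that were in the table of 4 listed summed to 109 to 132 RPM at E18.5 and 69.6 to 111 RPM at P1.5. Over both genotypes 2 of the 3 were lower and 1 higher at P1.5, at log2 differences from −2.39 to 0.01 (median −0.24). Their part in the result was not tested.

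Aqp1, a water channel of red cells and the endothelium of lung vessels (chromosome 6, 55336432 to 55348555), was at log2 RPKM 5.33 and 5.55 in E18.5 +/+, 4.46 and 5.60 in E18.5 GFP/GFP, 5.18 and 5.93 in P1.5 +/+ and 5.36 and 5.76 in P1.5 GFP/GFP lungs. The stages overlapped. The log2 difference was 0.32 (SE 0.32, 95% interval −0.42 to 1.06), with a limma adjusted p = 0.448, and it was 0.04 without E18.5 GFP/GFP replicate 1 and −0.13 after quantile normalization. The 7 endothelial markers summed to 1529 to 2198 RPM at E18.5 and 1853 to 2988 RPM at P1.5. Over both genotypes 5 of them were lower and 2 higher at P1.5, with a median log2 difference of −0.31 (−0.32 over all genes tested). Their part in the Aqp1 values was not tested. Aqp5, the apical water channel of alveolar type I cells, is no member but is the water channel of the alveolar surface. It was at 4.57, 4.96, 1.36 and 4.72 in the E18.5 libraries and 6.65, 5.40, 7.37 and 7.23 in the P1.5 libraries. Its log2 difference of 2.76 (SE 0.67) had a limma adjusted p = 0.0520. Per exon kilobase Aqp5 was 15.9, 18.3 and 27.8 times Aqp4 in 3 E18.5 libraries and 1.06 times in E18.5 GFP/GFP replicate 1. At P1.5 it was 54.6 times Aqp4 in +/+ replicate 2 and 400.3 to 736 times in the other 3 libraries.

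**Figure D3:**
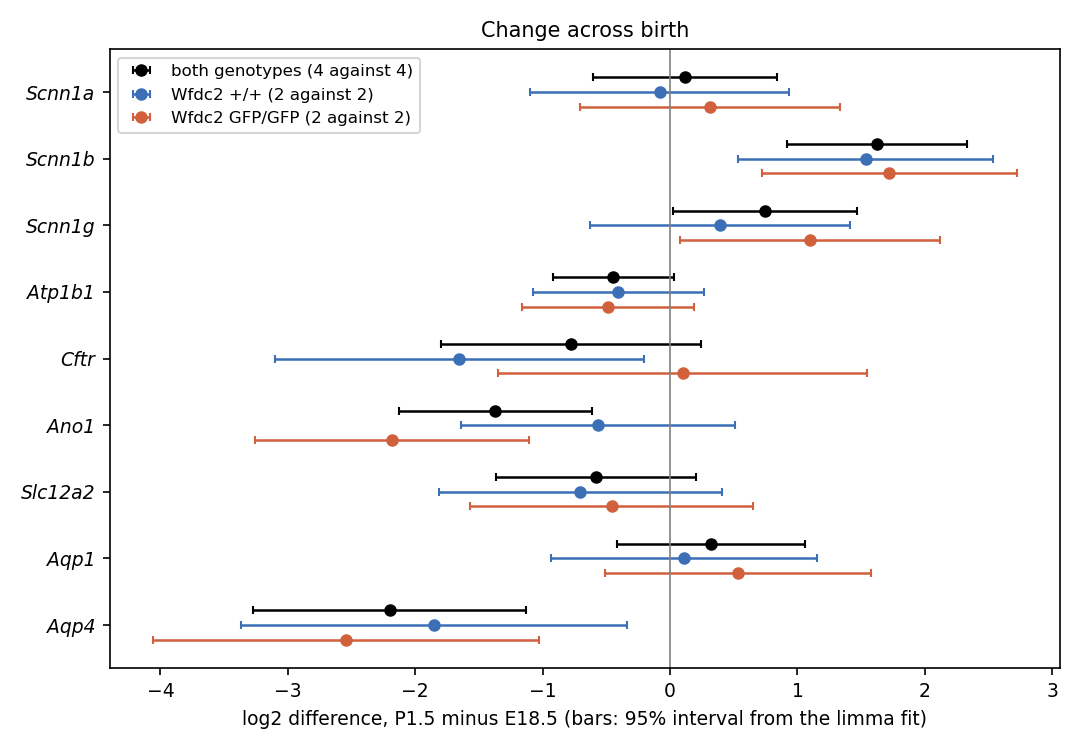
Log2 difference of P1.5 minus E18.5 (horizontal axis) for each of the 9 genes over both genotypes (black, 4 libraries against 4), in Wfdc2 +/+ (blue) and in Wfdc2 GFP/GFP lungs (orange, 2 against 2 each), with 95% intervals from the limma fit. The intervals over both genotypes leave 0 out for Scnn1b, Scnn1g, Ano1 and Aqp4, before adjustment over all genes.

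Over both genotypes 2 of the 9 genes were called, 1 higher and 1 lower at P1.5, where 5.14% of all genes tested were called, 2.58% higher and 2.56% lower. Between the stages 4 of the 9 did not overlap, 1 above and 3 below at P1.5, against 20.9% of all genes. The median log2 difference was −0.45 over the 9 genes and −0.32 over all genes tested. That shift of all genes depended on the scaling. With each library centred on its median gene it was 0.15, and 69.4% of 1842 called genes were higher at P1.5, against 50.2% of 803 as deposited. Scnn1b and Aqp4 were called under that centring too, at 2.1 and −1.73, as were Scnn1g at 1.22 and Ano1 at −0.90. In +/+ lungs alone 0 of the 9 were called by limma, where 0.0576% of all genes were, and 0 by voom on the recovered reads, while 3 had an unadjusted p under 0.05, as did 1850 of all 15627 genes. In GFP/GFP lungs alone 1 of the 9, Ano1, was called, where 4.55% of all genes were.

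The 2 calls across birth rest on 8 libraries together. Leaving out 1 library left the difference of Scnn1b between 1.37 and 1.88 and that of Aqp4 between −2.61 and −1.79. Scnn1b had a limma adjusted p = 0.158 without E18.5 +/+ replicate 1, 0.127 without E18.5 +/+ replicate 2, 0.0980 without E18.5 GFP/GFP replicate 1, 0.0511 without P1.5 +/+ replicate 1, 0.124 without P1.5 GFP/GFP replicate 1 and 0.102 without P1.5 GFP/GFP replicate 2. For Aqp4 the limma adjusted p was 0.158, 0.149, 0.134, 0.0558, 0.122 and 0.112 without the same libraries. Both were called without E18.5 GFP/GFP replicate 2 and without P1.5 +/+ replicate 2, the 2 remaining libraries.

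Between genotypes none of the 9 genes was called at either stage. At E18.5 limma called 0 of the 9, where 0.0192% of all genes were called, and voom also called 0, while 0 had an unadjusted p under 0.05, beside 683 of all 15627 genes. Between genotypes 3 of the 9 did not overlap at E18.5 (Scnn1g below, Atp1b1 and Ano1 above in GFP/GFP lungs), against 36% of all genes. The widest difference was that of Scnn1g, at −0.86 (SE 0.44, 95% interval −1.89 to 0.16), and it was −0.42 without E18.5 GFP/GFP replicate 1. The narrowest interval was that of Atp1b1, from −0.48 to 0.87, and the widest was that of Aqp4.

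At P1.5 limma again called 0 of the 9, where 0.0128% of all genes were called, voom called 0, and 2 had an unadjusted p under 0.05, as did 1710 of all 15627 genes. These were Cftr, higher in both GFP/GFP lungs than in both +/+ lungs by 1.51 (SE 0.62, 95% interval 0.06 to 2.95, limma adjusted p = 0.440), and Ano1, lower in both by 1.14 (limma difference −1.14, SE 0.46, 95% interval −2.21 to −0.07, adjusted p = 0.437). Without P1.5 +/+ replicate 1, in which Cftr was lowest, the Cftr difference was 0.68. Without P1.5 +/+ replicate 2, in which Ano1 was highest, the Ano1 difference was −0.66, and without P1.5 +/+ replicate 1 it was −1.62. Cftr, Slc12a2 and Ano1, 3 of the 9, did not overlap between genotypes, against 39.4% of all genes. The ratio of Cftr to Ano1 per exon kilobase was 0.0947 and 0.155 in P1.5 +/+ lungs and 0.624 and 0.925 in P1.5 GFP/GFP lungs, beside 0.154 to 0.268 in the 4 E18.5 libraries.

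**Figure D4:**
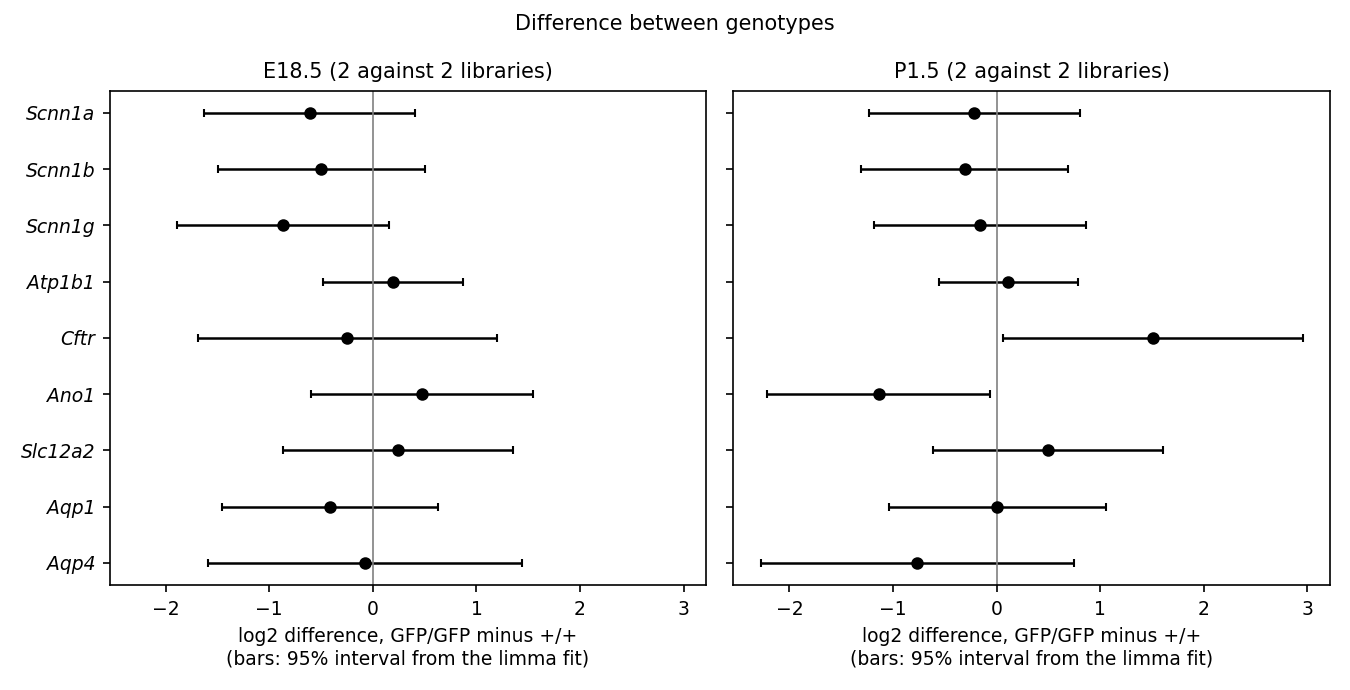
Log2 difference of Wfdc2 GFP/GFP minus Wfdc2 +/+ (horizontal axes) for each of the 9 genes at E18.5 (left) and P1.5 (right), 2 libraries against 2, with 95% intervals from the limma fit. At E18.5 all 9 intervals include 0, and at P1.5 those of Cftr and Ano1 leave it out before adjustment.

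Whether birth acted differently in the 2 genotypes was tested as the interaction of genotype and stage. Limma called 0 of the 9, where 0% of all genes were called, voom called 0, and 1 of the 9 had an unadjusted p under 0.05, as did 1599 of all 15627 genes. That gene was Ano1, whose change across birth was lower in GFP/GFP than in +/+ lungs by a log2 difference of −1.62 (SE 0.66, 95% interval −3.14 to −0.10, limma adjusted p = 0.458). Cftr went the other way, with an interaction of 1.75 (SE 0.88, limma adjusted p = 0.554) that was 2.17 without E18.5 GFP/GFP replicate 1, and the remaining 7 lay between −0.69 and 0.71. The change of Scnn1b differed by 0.19 between genotypes, with a 95% interval of −1.23 to 1.60, so a difference of more than 2-fold in either direction was within the error.

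The other genes of these pathways were taken from lists that were chosen with earlier results of these data known. Of 23 tested regulators of sodium absorption, from 27 listed, 2 were called higher and 3 lower across birth over both genotypes. Of all genes tested 5.14% were called in this comparison. Bpifa1, a secreted airway protein known to restrain the sodium channel, went from 3 to 20 reads per library at E18.5 to 64 to 299 at P1.5, a log2 difference of 4.63 (SE 0.60, limma adjusted p = 0.0149). Sgk1, the kinase that keeps the channel at the membrane, rose by 1.25 (SE 0.28, limma adjusted p = 0.0464). Nedd4l, the ubiquitin ligase that removes the channel from the membrane, fell by 1.74 (limma difference −1.74, SE 0.26, adjusted p = 0.0238), and its relative Nedd4 fell by 2.38 (limma difference −2.38, SE 0.46, adjusted p = 0.0385). Hsd11b1, which regenerates active glucocorticoid, fell by 1.46 (limma difference −1.46, SE 0.20, adjusted p = 0.0171). The median difference of this list was 0.01.

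Of the other sodium pump subunits 12 of 14 were tested, and 1 was called, Fxyd6, a small regulator of the pump, with a rise of 1.70 (SE 0.25, limma adjusted p = 0.0220). Of the other genes of chloride and bicarbonate transport 22 of 28 were tested, and 1 was called, Clca1, a secreted modulator of calcium-activated chloride currents, which fell by 1.5 (limma difference −1.5, SE 0.34, adjusted p = 0.0497), a call that median centring and quantile normalization did not give. Of the other water channels 3 of 10 were tested, and 1 was called, Aqp3, a channel for water and glycerol of basal cells, with a rise of 1.84 (SE 0.29, limma adjusted p = 0.0258), although its lowest P1.5 library lay within the E18.5 range. The medians of the 3 lists were 0.45, −0.25 and 1.84, and the share called over all genes tested was 5.14%. In each genotype comparison and in the interaction, limma called 0 genes of the 4 lists. Of all genes tested 0.0192% were called at E18.5, 0.0128% at P1.5 and 0% in the interaction. The birth calls of all 4 lists were lost without E18.5 +/+ replicate 1, E18.5 GFP/GFP replicate 1, P1.5 GFP/GFP replicate 1 or P1.5 GFP/GFP replicate 2, and all but that of Bpifa1 without E18.5 +/+ replicate 2.

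**Figure D5:**
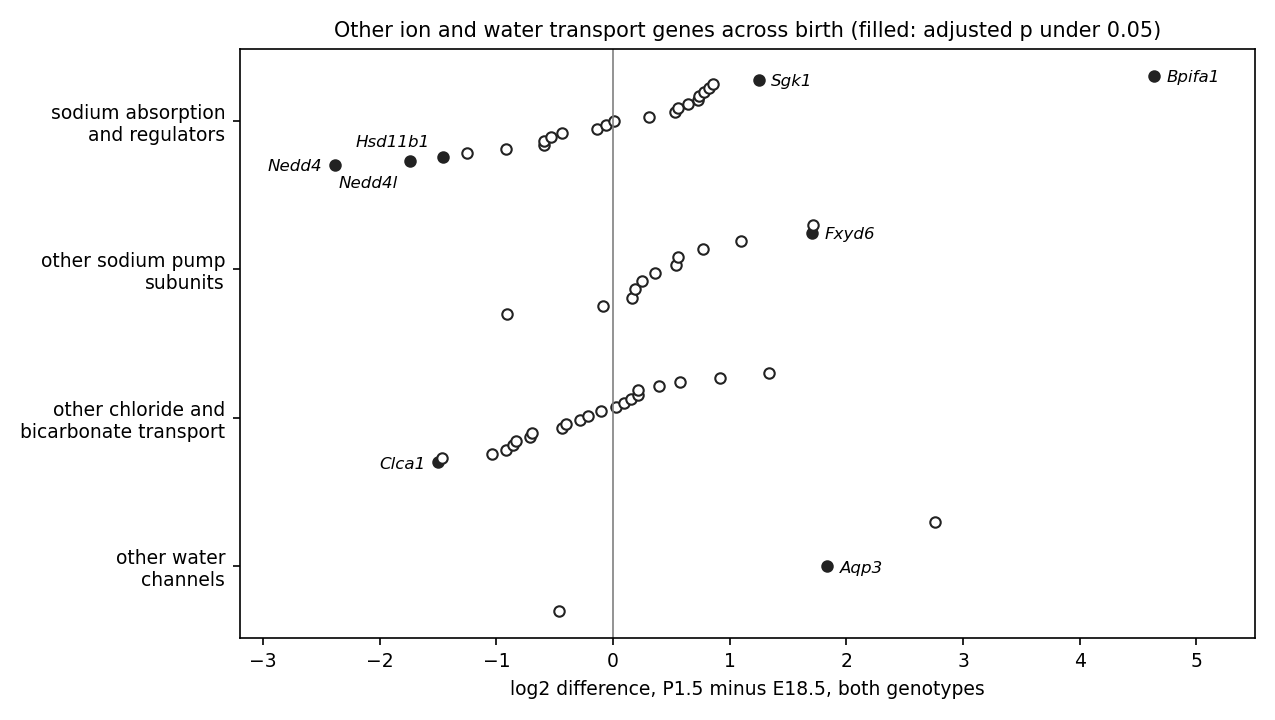
Log2 difference of P1.5 minus E18.5 over both genotypes (horizontal axis) for the tested genes of 4 lists (23, 12, 22 and 3 genes from top to bottom), 1 point per gene spread vertically within its list by size. Filled points with a name had a limma adjusted p-value under 0.05, 3 of them below 0 in the sodium absorption list.

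As a description over the 8 libraries, the genes whose log2 RPKM followed each member most closely were listed by Pearson's r. The libraries differ in depth and in stage, and the part of these in the correlations was not tested. Scnn1b was followed by Lgals7, Cxcl17 and Slurp1, at r = 0.992, 0.991 and 0.990. Aqp4 was followed by Klhl4, Crkl and Kdm1b at 0.993, 0.992 and 0.991, and Ano1 by Taf5, Cspp1 and Raph1 at 0.997, 0.995 and 0.995. Cftr was followed by Tmem167, Pcgf5 and Prkrir (0.99, 0.99 and 0.98), Slc12a2 by Mrs2, Dicer1 and Zfp26 (0.98, 0.98 and 0.97), and Aqp1 by Nudt11, C1rl and Mtap6 (0.99 each). Scnn1a was followed by Itprip, Ssbp4 and Capn1 (0.98, 0.96 and 0.96), Scnn1g by genes that included Hbq1a and Nfam1 (0.96 each), and Atp1b1 by Slc2a1, Ankrd37 and Mslnl (0.97, 0.96 and 0.96). Among the members themselves, Ano1 and Aqp4 ran together most closely at r = 0.93, Scnn1a and Aqp1 followed at 0.88, and Scnn1b ran opposite to Aqp4 at −0.88. The 3 sodium channel subunits correlated at 0.42 to 0.75 with each other.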

How the data were processed

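Directional libraries of total lung RNA were sequenced in 4 groups of 2. Per the labels and the study's methods, reads were called with CASAVA 1.8, trimmed with Trim Galore 0.4.0, mapped to mm10 with TopHat2 2.1.1 and counted in SeqMonk, and the authors deposited log2 RPKM for 25965 genes, with gene spans as lengths and no scaling beyond the total. A gene without reads carries 0.9 read. In every library all values below 1000 reads were whole within 0.02. No pseudocount was added. The 15627 genes whose mean RPKM reached 0.05 were fitted with limma 3.58.1 (R 4.3.3), 1 mean per group, with two-sided p-values adjusted by the Benjamini-Hochberg method over all genes and a threshold of 0.05. Contrasts were P1.5 minus E18.5 (both genotypes and each), GFP/GFP minus +/+ at each stage, and their interaction. Overlaps and exon lengths came from GENCODE M21. In a simulation of the birth comparison over 15627 genes, of 200 genes given a log2 change of 2, 181 and 178 were found at dispersions of 0.01 and 0.1, with 21 and 13 false calls. At both dispersions the false calls made up a larger share of all calls than the threshold of 0.05. Genes were drawn independently in the simulation, without shifts between libraries, and the change exceeded that of Scnn1b (1.63). These rates therefore need not hold for the data. Ratios and figures used Python 3.11.15, numpy 2.4.6, pandas 2.3.3 and matplotlib 3.10.9.

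All members were named, along with listed genes called across birth over both genotypes (up to 4 per list and direction), Aqp5, Wfdc2 and the 3 genes most correlated with each member, and some results under this rule are not reported here. Members and lists were chosen with earlier results of these data known. Cog7, Nme7, Foxi1 and the other genes named in the closing section were named after their values were seen. Alternatives were other filters, pseudocounts and scalings, the replicate block, voom on recovered reads, the 4 compared libraries alone, a threshold of 0.1, and each library left out in turn.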

Additional observations from a re-analysis of the deposited data

Results flagged for a closer look

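The genotype difference of Ano1 had opposite signs at the 2 stages. At E18.5 both GFP/GFP lungs lay above both +/+ lungs, by 0.48 on the log2 scale, and at P1.5 both lay below, with a difference of −1.14. The interaction was −1.62 (SE 0.66), and its limma adjusted p = 0.458 did not pass the threshold. Leaving out 1 library left it between −2.09 and −1.14, and without E18.5 GFP/GFP replicate 1, in which Ano1 was highest, it was −1.18. At E18.5 the lower GFP/GFP lung (−0.53) and the higher +/+ lung (−0.57) were nearly level.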

How the results depend on the processing

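With 2 libraries a group, the lowest read counts of the members were those of Aqp4 (52 to 144 reads at P1.5) and Cftr (137 reads in 1 library). Over both genotypes, the 2 members called across birth became 0 with no filter on low values, 1 with a pseudocount of 1 RPKM, 4 with median centring, and 0 to 4 with 1 library left out. In GFP/GFP lungs the 1 member called became 0 with no filter, either pseudocount, quantile normalization or voom, and 3 with the filter at 0.5 RPKM, median centring, the 4 libraries alone or a threshold of 0.1, and 0 to 3 with 1 library left out. In +/+ lungs 0 became 3 without P1.5 +/+ replicate 2 and was 0 to 3 over the libraries left out. In the genotype comparisons and the interaction 0 members were called under every alternative run. Calls over all genes across birth (803) ranged from 28 to 7125 with 1 library left out, and were 428 with no filter, 1684 at 0.5 RPKM, 461 with a pseudocount of 1 RPKM, 1842 with median centring, 1278 after quantile normalization and 4956 at a threshold of 0.1. The highest count with 1 library left out was that without P1.5 +/+ replicate 2. In a lone group the remaining library was assumed to vary like the others. Of the listed pathway genes called across birth, Fxyd6 and Aqp3 were called under every filter, pseudocount, scaling, block and test run. The Clca1 call was lost with no filter, median centring, quantile normalization and the replicate block, those of Sgk1 and Nedd4 with no filter and the replicate block, those of Sgk1 and Bpifa1 with a pseudocount of 1 RPKM, that of Hsd11b1 with median centring and that of Nedd4l after quantile normalization. The causes of these changes were not tested.

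Deviations of same-numbered libraries from their group means correlated at r = 0.23 between genotypes at E18.5 and 0.21 at P1.5. Between stages r ran from −0.29 to 0.08. The main fit had no block, because the replicate numbers are not stated to mark litters. Same-numbered libraries do share a sex, as read from Xist and Ddx3y, and the numbers are not stated to mark anything else. With the replicate block over all libraries 0 members were called across birth over both genotypes (287 genes in all) and 0 in GFP/GFP lungs (125 genes). With the replicate block within stage 4 were called in each (4990 and 4160 genes). Scnn1b had a limma adjusted p = 0.0556 and 0.00866 with these blocks, and Aqp4 0.0650 and 0.0144.

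These directions turned. With median centring the differences were 0.025 for Atp1b1 across birth over both genotypes, 0.18 for Scnn1a in +/+, 0.19 for Atp1b1 and 0.22 for Slc12a2 in GFP/GFP, −0.016 for Atp1b1 between genotypes at E18.5, 0.042 for Scnn1g at P1.5 and 0.33 for Atp1b1 in the interaction. After quantile normalization Aqp1 across birth was −0.13 over both genotypes, −0.16 in +/+ and −0.10 in GFP/GFP, and between genotypes at P1.5 Atp1b1 was −0.030 and Aqp1 −0.31. With a pseudocount of 1 RPKM the interaction of Scnn1b was −0.035. With 1 library left out, Scnn1a across birth ran from −0.20 to 0.43 over both genotypes, −0.35 to 0.19 in +/+ and −0.32 to 0.94 in GFP/GFP, Aqp1 from −0.26 to 0.49 in +/+ and −0.036 to 1.10 in GFP/GFP, and in GFP/GFP Cftr from −0.32 to 0.51 and Slc12a2 from −1.19 to 0.28. Between genotypes at E18.5 Scnn1a ran from −1.24 to 0.025, Scnn1b from −1.01 to 0.016, Cftr from −0.66 to 0.17, Slc12a2 from −0.49 to 0.98, Aqp1 from −0.98 to 0.15 and Aqp4 from −0.75 to 0.60. At P1.5 Scnn1a ran from −0.48 to 0.055, Scnn1b from −0.62 to 0.0021, Scnn1g from −0.63 to 0.32, Atp1b1 from −0.070 to 0.29, Aqp1 from −0.37 to 0.38 and Aqp4 from −1.58 to 0.049. In the interaction Scnn1a ran from −0.24 to 1.03, Scnn1b from −0.33 to 0.70, Atp1b1 from −0.26 to 0.10, Slc12a2 from −0.49 to 0.98, Aqp1 from −0.15 to 0.99 and Aqp4 from −1.50 to 0.12.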

Other observations

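Several genes that work beside the members in other settings had few reads in these lungs and did not pass the filter on low values. Foxi1, a transcription factor of ionocytes, the Cftr-rich cells of the airway, had 0 or 1 read per library. Slc26a4, an anion exchanger of inflamed airway, had 0 to 25 reads, and Slc9a3, an apical sodium and proton exchanger, had 0 to 3. Nr3c2, the mineralocorticoid receptor, had 37 to 153 reads. Of the water channels, Aqp2, Aqp6, Aqp8 and Aqp12 had 0 to 6 reads and Mip had 0 in every library, a count that allows up to 0.0806 to 0.154 RPM.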
